A study of Mus musculus with 12 samples.

Results

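The comparison was between mouse C2C12 myoblasts transfected with siRNA against BRG1 (siBRG1, 2 arrays) and the same cells transfected with a scrambled siRNA (siScramble, 2 arrays), which makes 4 of the 12 arrays of the series, chosen by their labels. C2C12 is an established line of mouse muscle precursor cells. Per the labels, cells in medium with 15% serum received a pool of siRNAs, were moved to serum-poor differentiation medium (ITS) 36 h later and were harvested after a further 18 h. The controls therefore carried an siRNA, and had left growth medium, as the siBRG1 cells had. The other groups, also of 2 arrays each, were siBAF60b and siBAF60c cells treated in the same way, and wild-type cells in differentiation medium (DM, 18 h) or in growth medium (GM). Labelled cRNA from 500 ng of total RNA was read on Illumina BeadChips. The knockdown was transient and from a pool of siRNAs in 1 line, and no second, independent siRNA or protein measurement was used here.

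BRG1, the product of Smarca4, is a DNA-dependent ATPase of the BAF (SWI/SNF) chromatin remodelling complexes, which slide or evict nucleosomes. In muscle precursors these complexes are recruited with the transcription factor MyoD to muscle genes, and the BAF60 subunits link them to sequence-specific factors. Myoblasts shifted to differentiation medium leave the cell cycle, switch on contractile and calcium-handling genes, and fuse into myotubes. BRG1 is also known to act with the retinoblastoma protein at E2F-regulated cell cycle genes.

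Values are log2 intensities after background correction and quantile normalization, and each difference is siBRG1 minus siScramble with its standard error (SE, 2 arrays per group). One limma model took in all 12 arrays, and a gene passed when its p, adjusted by Benjamini-Hochberg over 10346 genes, was under 0.05. The labels do not tell whether replicates came from separate cultures, so the p-values may measure technical spread only. The siBRG1 arrays detected 13934 and 14395 probes and the siScramble arrays 13075 and 14240, of 45281 on the array. Before normalization the median log2 intensity of the kept probes was 6.76 and 6.89 in siBRG1, against 6.18 and 6.89 in siScramble, so siScramble replicate 1 was the dimmest of the 4, and the part of this in the results was not tested. The 2 siBRG1 arrays differed by more than 1 log2 unit in 108 genes and the 2 siScramble arrays in 462. Replicate 1 of both groups lay on 1 BeadChip, whereas replicate 2 of siBRG1 and of siScramble lay on different chips. In bulk RNA, fewer cells of a kind and less RNA per cell cannot be told apart.

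The targeted gene was the first check. Smarca4 read 6.77 and 6.38 in siBRG1 arrays, against 7.77 and 7.20 in siScramble arrays, without overlap (20.1% of all genes lay lower in this way). The difference of -0.92 (SE 0.37, 95% confidence interval -1.71 to -0.12) left 52.95% of the siScramble level but did not pass over all genes (adjusted p = 0.515). With the authors' deposited values it was -0.48 and left 71.5%, and without background correction it was -0.50 and left 70.8%. The second ATPase of the complex, Smarca2, differed by 0.15 (SE 0.25), BAF60b gene Smarcd2 by 0.02 (SE 0.39), and BAF60c gene Smarcd3 by -0.57 (SE 0.35), none of which passed. Of 23 measured BAF subunit genes none passed in limma, 15 lay above 0 and the median was 0.11, against 0.01 over all genes. In limma 3 of these subunit genes had an unadjusted p under 0.05, against 835 of all 10346 genes. The widest of these, the DNA-binding subunit Arid1a, read 5.87 and 5.99 in siBRG1 and was not above detection in siScramble (4.80 and 4.74, at least 1.45-fold, adjusted p = 0.422).

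Knockdown of BRG1 was followed by a small set of large changes. In siBRG1 cells 4 glutathione transferases, 3 proliferins, the surface antigen Ly6c1 and several muscle-associated genes fell, and alpha-globin, Sema7a, Cdc6 and Ccnd2 rose. In all 29 genes passed (0.28% of those tested), with 11 higher (0.106%) and 18 lower (0.174%). Without overlap between the arrays of the 2 groups, 2304 genes (22.3%) lay higher and 2076 (20.1%) lower. An unadjusted p under 0.05 in limma was reached by 835 of the 10346 genes, 418 higher and 417 lower. With the BeadChip as a fixed block 25 genes passed, 18 of them among the 29. The 11 that did not pass there were Aqp1, Ccnd2, Cdc6, Crabp1, Gstm2, Lce1f, Ly6c1, Mustn1, Pla1a, Ranbp3l and Slco4a1, with adjusted p between 0.0512 and 0.101. With arrays scaled to the median of the kept probes 11 genes passed, of which 10 were among the 29 (Depp1, Gsta1, Gsta2, Hba-a1, Klhl30, Lgals3bp, Ly6c1, Prl2c2, Prl2c3 and Sema7a). The number of calls depended on every array: it was 2 without siBRG1 replicate 1, 1 without siBRG1 replicate 2, 1 without siScramble replicate 1 and 3 without siScramble replicate 2, of which 2 were among the 29, and Gsta1 passed in each of these 4 fits. With limma it was 0 when arrays were scaled to the median of all probes, a setting that moved the all-gene median to 0.32 and left 343 genes at an unadjusted p under 0.05, and 72 when the 2 widely differing DM arrays were left out of the fit.

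**Figure D1:**
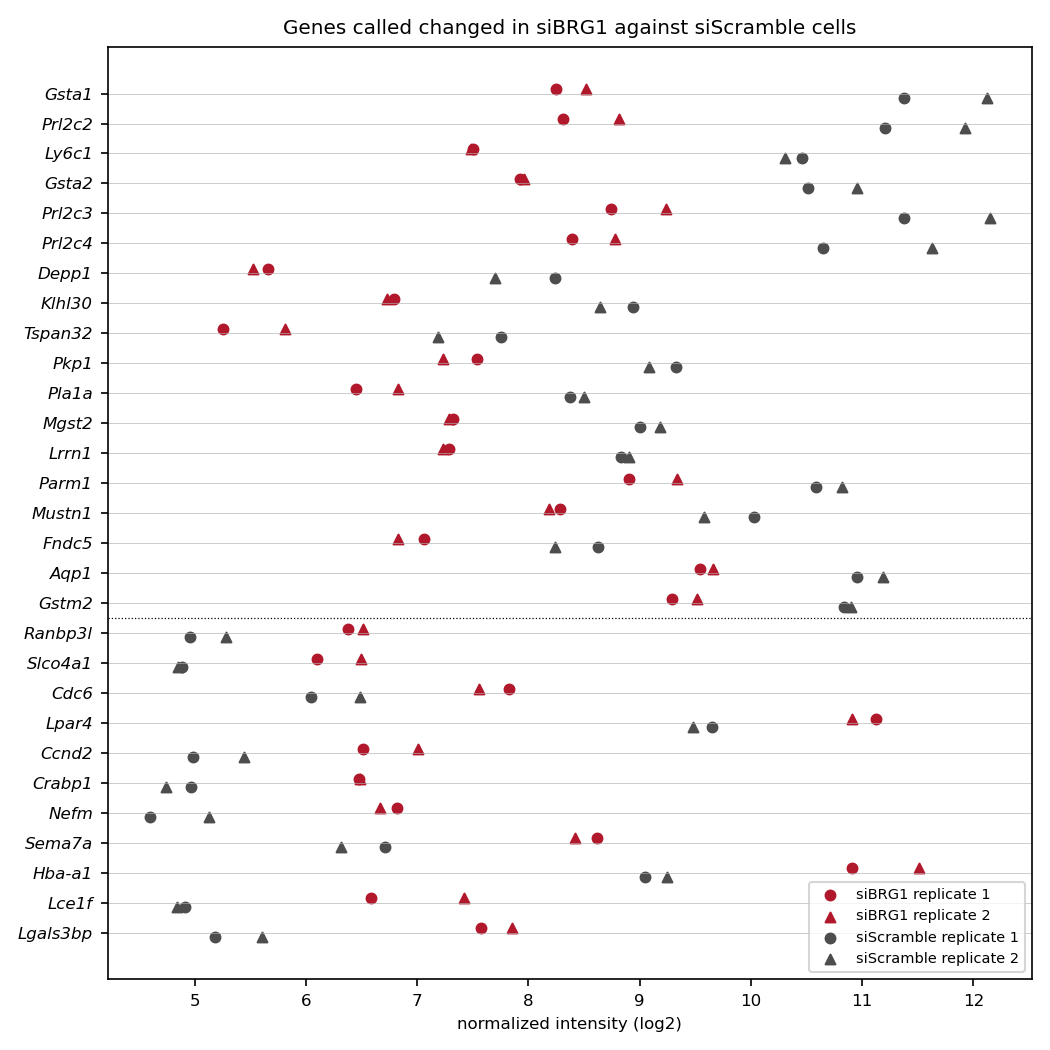
Normalized log2 intensity (x axis) of the 29 genes that passed, 1 row per gene, with siBRG1 arrays in red and siScramble arrays in grey, circles for replicate 1 and triangles for replicate 2. The 18 genes above the dotted line were lower and the 11 below it higher in siBRG1 cells, and in no row do the colours overlap.

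Glutathione transferases, which join glutathione to reactive compounds, gave the largest fall. Gsta1 read 8.25 and 8.52 in siBRG1 arrays, against 11.38 and 12.12 in siScramble arrays. Both siBRG1 values lay far under both siScramble values, a fall of 10.3-fold (-3.37, SE 0.33, adjusted p = 6.17e-04), and 2 further Gsta1 probes differed by -2.84 and -3.41. Gsta2, the other alpha-class enzyme that passed, read 7.93 and 7.96 in siBRG1, against 10.52 and 10.96 in siScramble (-2.80, SE 0.46, adjusted p = 0.0261). The microsomal enzyme Mgst2 read 7.33 and 7.28 in siBRG1, against 9.01 and 9.19 in siScramble (-1.79, SE 0.30, adjusted p = 0.0261). The mu-class enzyme Gstm2 read 9.29 and 9.51 in siBRG1, against 10.83 and 10.90 in siScramble (-1.46, SE 0.25, adjusted p = 0.0374). Probes for close paralogs of the alpha and mu classes may read more than 1 member.

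Most of the transferase family did not pass. Of 21 measured transferase genes 4 passed as lower and none as higher, against 0.174% and 0.106% of all genes. In the list 10 genes lay above 0 and 11 below, and the median was -0.19. The mitochondrial and peroxisomal enzyme Gstk1 lay lower by a similar amount without passing, at 5.57 and 6.37 in siBRG1, against 7.64 and 7.35 in siScramble (-1.53, SE 0.36, adjusted p = 0.115). Other targets of NRF2, the factor that induces many detoxifying enzymes, gave no call in limma. Of 19 such genes outside the transferases 11 lay above 0, with a median of 0.06. In limma 2 of the 19 had an unadjusted p under 0.05, against 835 of all 10346 genes. Among these the epoxide hydrolase Ephx1 differed by -0.71 (SE 0.27) and the sulfiredoxin Srxn1 by 0.89 (SE 0.31).

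The proliferins, secreted prolactin-family hormones known from placenta and from growing fibroblasts, fell as well. Prl2c2 read 8.31 and 8.81 in siBRG1 arrays, against 11.20 and 11.92 in siScramble arrays (-3.00, SE 0.44, adjusted p = 0.0208). Prl2c3 read 8.74 and 9.24 in siBRG1, against 11.38 and 12.15 in siScramble (-2.77, SE 0.45, adjusted p = 0.0261). Prl2c4 read 8.39 and 8.78 in siBRG1, against 10.65 and 11.62 in siScramble (-2.55, SE 0.46, adjusted p = 0.0426). In none of the 3 genes did the groups overlap (20.1% of all genes lay lower in this way). The 3 sequences are near-identical copies, so their probes may report shared transcripts. The other measured family members, Prl2c1 and Prl8a2, lay near the detection limit, at -0.63 and -0.59, and did not pass.

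Several genes with known roles in muscle fell. Klhl30, of a kelch-repeat family whose members serve ubiquitin ligases, read 6.79 and 6.73 in siBRG1, against 8.94 and 8.64 in siScramble (-2.03, SE 0.31, adjusted p = 0.0224). Mustn1, a small nuclear protein of the musculoskeletal system, read 8.28 and 8.19 in siBRG1, against 10.03 and 9.58 in siScramble (-1.57, SE 0.29, adjusted p = 0.0426). Fndc5, the precursor of the secreted peptide irisin, read 7.06 and 6.82 in siBRG1, against 8.62 and 8.24 in siScramble (-1.49, SE 0.28, adjusted p = 0.0426). In these genes both siBRG1 arrays lay below both siScramble arrays by more than 1 log2 unit. Parm1, a membrane mucin, read 8.90 and 9.34 in siBRG1, against 10.58 and 10.82 in siScramble (-1.58, SE 0.29, adjusted p = 0.0426). Fndc5 and Parm1 were also among the genes that rose in wild-type cells on differentiation, by 4.24 (SE 0.28) and 3.81 (SE 0.29) in DM against GM, a contrast that shares no array with the knockdown and called 2010 genes (19.4%). The 18 genes that fell were mixed in that contrast: 5 were higher and 6 lower in DM than in GM by the test, and 7 of the 18 lay above 0. Of the 11 that rose with the knockdown 1 was higher and 4 were lower in DM than in GM by the test.

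Other genes that fell were of mixed function. Depp1, an autophagy-linked gene induced by FOXO factors, read 5.66 and 5.52 in siBRG1, against 8.24 and 7.70 in siScramble (-2.38, SE 0.30, adjusted p = 0.00598). Ly6c1, a GPI-anchored surface antigen, read 7.50 and 7.49 in siBRG1, against 10.46 and 10.31 in siScramble (-2.89, SE 0.51, adjusted p = 0.0401). The 2 siBRG1 values of Ly6c1 were nearly equal and far below siScramble, but a fit with the chip as a block gave -2.40, which did not pass (adjusted p = 0.0798). The water channel Aqp1 (-1.47), the leucine-rich neuronal membrane protein Lrrn1 (-1.61), the desmosomal plakophilin Pkp1 (-1.82), the phospholipase Pla1a (-1.80) and the tetraspanin Tspan32 (-1.94, detected on 1 siBRG1 array) completed the 18, with adjusted p between 0.0261 and 0.0496.

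Of the 11 genes that rose, 4 were detected on all 4 arrays. Hba-a1, alpha-globin, a subunit of haemoglobin, read 10.91 and 11.51 in siBRG1, against 9.05 and 9.25 in siScramble (2.06, SE 0.27, 4.18-fold, adjusted p = 0.00796). Its probe may also read the near-identical second alpha-globin gene. Sema7a, a membrane-anchored semaphorin, read 8.61 and 8.42 in siBRG1, against 6.71 and 6.32 in siScramble (2.00, SE 0.31, adjusted p = 0.0224). Lpar4, a receptor for lysophosphatidic acid, read 11.13 and 10.91 in siBRG1, against 9.65 and 9.48 in siScramble (1.45, SE 0.27, adjusted p = 0.0426). Cdc6, which loads the replicative helicase at origins of replication, read 7.82 and 7.56 in siBRG1, against 6.04 and 6.48 in siScramble (1.43, SE 0.26, adjusted p = 0.0426). In all 4 genes the arrays were separated by more than 1 log2 unit.

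The other 7 genes that rose were detected on at most 1 siScramble array. The neurofilament gene Nefm read 6.82 and 6.66 in siBRG1 and was not detected in siScramble (4.59 and 5.13), at least 2.55-fold higher (adjusted p = 0.0261), while a second probe differed by 1.06 without passing. The 6 measured of 15 neuronal markers together summed to 719 and 685 units of linear intensity in siBRG1, against 977 and 1026 in siScramble. Crabp1, a carrier of retinoic acid, read 6.48 and 6.49 in siBRG1 and was not detected in siScramble (4.97 and 4.74), at least 2.13-fold higher (adjusted p = 0.0394). Lce1f, a gene of the cornified envelope of skin, was at least 3.06-fold higher (adjusted p = 0.0426) and the organic anion transporter Slco4a1 at least 1.88-fold higher (adjusted p = 0.0432). Lgals3bp, a secreted galectin-binding glycoprotein, read 7.57 and 7.85 in siBRG1, against 5.18 and 5.60 in siScramble, detected on 1 array (2.32, SE 0.42, adjusted p = 0.0426). The D-type cyclin Ccnd2 read 6.51 and 7.01 in siBRG1, against 4.98 and 5.44 in siScramble, detected on 1 array (1.55, SE 0.29, adjusted p = 0.0426; second probe 0.49). Ranbp3l (1.33, SE 0.26, adjusted p = 0.0488), a nuclear export factor, had a second probe at -0.32, so its probes disagreed. The dim genes Ccnd2, Crabp1, Lce1f, Nefm, Ranbp3l and Slco4a1 differed by 0.47 to 0.86 and did not pass without background correction or with the authors' deposited values. With the authors' values Sema7a (1.20), Lgals3bp (1.05), Fndc5 (-0.94), Pkp1 (-1.30) and Prl2c4 (-2.23) also missed the threshold (adjusted p = 0.0507 each). Tspan32 missed it with those values (-0.86, adjusted p = 0.0889) and without background correction (-0.89, adjusted p = 0.0841). Other genes had smaller differences there and still passed, such as Depp1 (-1.16) and Cdc6 (0.73) with the authors' values.

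Most of the 29 genes did not differ between siBRG1 and the other knockdowns by test: 4 differed from siBAF60c and 5 from siBAF60b. Gsta1 read 9.17 and 9.42 in siBAF60b and 9.57 and 10.20 in siBAF60c, so both other knockdowns also lay below siScramble. The proliferin and prolactin list had medians of -2.55 in siBRG1, -2.10 in siBAF60b and -1.17 in siBAF60c, each against the same siScramble arrays. The thin filament list had medians of -1.05 in siBRG1, -0.29 in siBAF60b and -0.78 in siBAF60c against those arrays. Crabp1 read between 4.67 and 5.54 in the other 5 groups and, by its own test, was higher in siBRG1 than in siBAF60c (1.63, adjusted p = 0.0443) and siBAF60b (1.76, adjusted p = 0.0385) cells. These contrasts share the siBRG1 arrays with the main one. They called 12 genes (0.116%) against siBAF60c and 9 (0.087%) against siBAF60b. Gstm2 was also lower in siBRG1 than in both other knockdowns, by its own tests (-1.92, adjusted p = 0.0119 against siBAF60c, and -1.66, adjusted p = 0.0385 against siBAF60b). Depp1 (-1.97, adjusted p = 0.023) and Ly6c1 (-2.96, adjusted p = 0.0443) differed from siBAF60c, whereas against siBAF60b their differences of -1.30 and -1.89 did not pass. Sema7a (1.93), Nefm (1.88) and Mgst2 (-1.80) differed from siBAF60b, each with adjusted p = 0.0385. Once the chip was fitted as a fixed block, none of the siBAF60b differences passed in limma (866 genes had an unadjusted p under 0.05), and adjusted p was 0.0711 to 0.0778 for Crabp1, Gstm2, Sema7a, Nefm and Mgst2. Against siBAF60c Gstm2 and Depp1 passed under that block, and Crabp1 (adjusted p = 0.0807) and Ly6c1 (adjusted p = 0.0912) did not. Under the block Tspan32 (-2.25, adjusted p = 0.0345), Pkp1 (-1.97, adjusted p = 0.0378) and Prl2c2 (-1.67, adjusted p = 0.0429) also differed from siBAF60c, which they did not in the main fit. The Hba-a1 arrays read 10.91 and 11.51 in siBRG1 and 11.37 and 11.11 in siBAF60c, overlapping, and a difference of -0.03 (SE 0.27) did not pass.

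**Figure D2:**
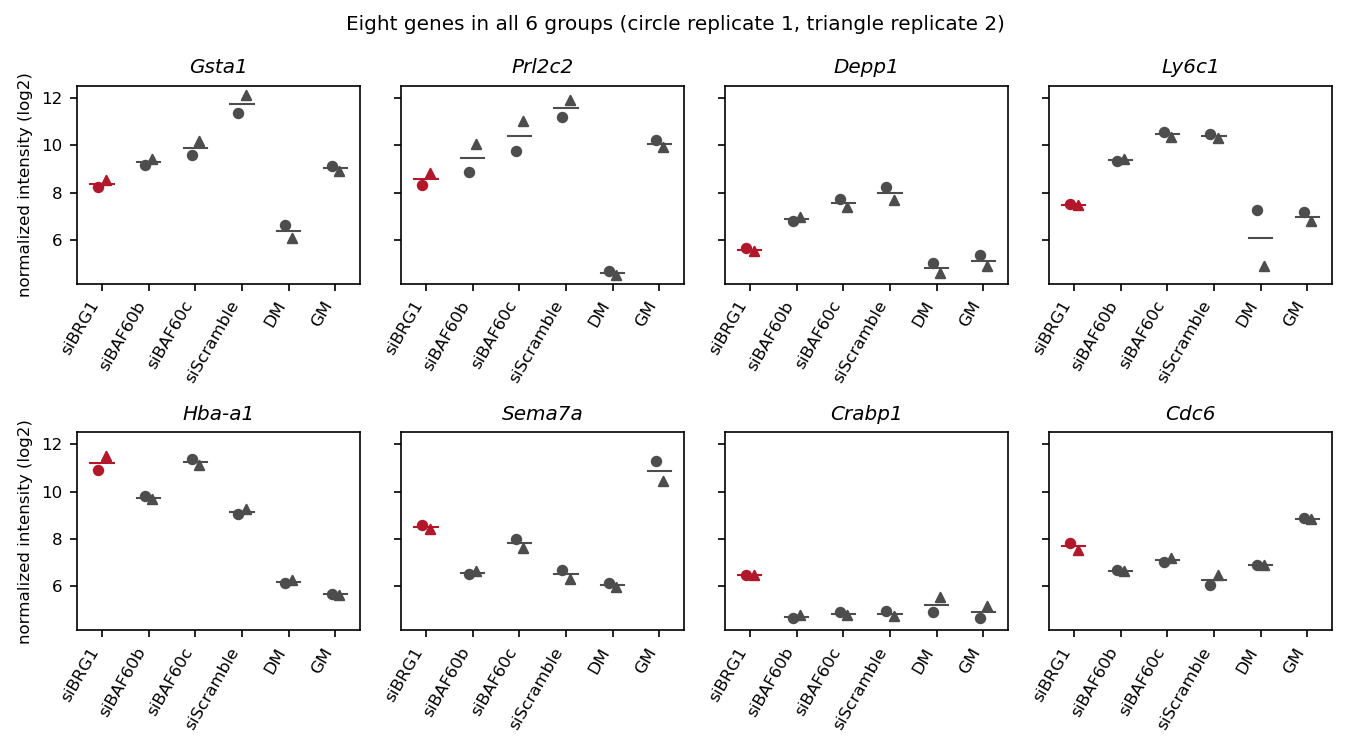
Normalized log2 intensity (y axis) of 8 genes in the 6 groups, with circles for replicate 1, triangles for replicate 2 and a bar at the group mean. Gsta1, Prl2c2, Depp1 and Ly6c1 (top) lay below siScramble in siBRG1, and Hba-a1, Sema7a, Crabp1 and Cdc6 (bottom) above it.

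The siScramble cells themselves differed from wild-type DM cells in several of these genes. Gsta1 read 11.38 and 12.12 in siScramble, against 6.65 and 6.08 in DM, and Prl2c2 read 11.20 and 11.92 in siScramble, against 4.70 and 4.53 in DM. Against the 6 group means, siScramble was the highest of all in 13 of the 18 genes that fell and siBRG1 the lowest in 5. Of the 11 that rose, siBRG1 was the highest of the 6 in 6, and siScramble the lowest in 4. Both sets were picked by their siBRG1 and siScramble values, which favours such ranks, and ranks over all genes were not computed. Whether the siScramble or the DM cells better represent unperturbed differentiation was not tested.

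Genes of the contractile apparatus lay lower in siBRG1 cells as groups, although no single member passed. Skeletal actin Acta1 read 11.97 and 11.41 in siBRG1, against 13.14 and 12.98 in siScramble (-1.37, SE 0.34, adjusted p = 0.143). Fast troponin T gene Tnnt3 read 9.18 and 8.96 in siBRG1, against 10.66 and 10.17 in siScramble (-1.34, SE 0.37, adjusted p = 0.207). In both genes the arrays did not overlap. Of 14 measured thin filament genes 13 lay below 0, 10 without overlap (20.1% of all genes), and the median was -1.05, against 0.01 over all genes. In limma 8 of them had an unadjusted p under 0.05, against 835 of all 10346 genes. Of 10 genes for sarcomeric myosins and their regulators 9 lay below 0 (median -0.86), led by the myosin chaperone Unc45b (-1.43, SE 0.36, adjusted p = 0.154) and the light chain Myl1 (-1.34, SE 0.33, adjusted p = 0.137). Of 19 Z-disc and M-band genes 18 lay below 0 (median -0.53), led by Myom3, a protein of the M-band, at -1.79 (SE 0.37, adjusted p = 0.066).

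The calcium-handling and energy genes of muscle lay lower too. Of 15 excitation-contraction coupling genes 12 lay below 0, all 12 without overlap (20.1% of all genes), and the median was -0.95. The calcium release channel Ryr1 read 8.34 and 8.02 in siBRG1, against 9.68 and 8.93 in siScramble (-1.12, SE 0.36, adjusted p = 0.325), and the adaptor Stac3, which couples it to the voltage sensor, differed by -1.15 (SE 0.37). Of 17 muscle energy genes 16 lay below 0 (median -0.87). Muscle creatine kinase Ckm read 8.06 and 7.57 in siBRG1, against 9.74 and 8.89 in siScramble (-1.50, SE 0.43, adjusted p = 0.231). The purine cycle enzyme Adssl1 read 9.52 and 9.66 in siBRG1, against 10.79 and 10.77 in siScramble (-1.19, SE 0.28, adjusted p = 0.107). Of 15 fusion and membrane repair genes 14 lay below 0 (median -0.60), among them the fusogen Mymk (-1.13, SE 0.46) and the repair protein Dysf (-1.01, SE 0.33). Of 8 kelch and Asb ubiquitin ligase adaptors 6 lay below 0, with Klhl30 as the 1 call and Asb2 at -1.45 (SE 0.33, adjusted p = 0.101). Alpha-sarcoglycan Sgca, of the dystrophin complex, narrowly missed the threshold (-1.31, SE 0.26, adjusted p = 0.0544), in a list of 9 with a median of -0.25.

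The upstream myogenic factors gave no call either. Myod1 read 7.64 and 7.71 in siBRG1, against 8.25 and 8.08 in siScramble (-0.49, SE 0.37, adjusted p = 0.841). Myog, which acts after MyoD in differentiation, read 9.70 and 9.41 in siBRG1, against 11.17 and 10.17 in siScramble (-1.12, SE 0.52, adjusted p = 0.609), which became -0.61 without siScramble replicate 1, and Mef2c differed by 0.27 (SE 0.28). Arrays of Myod1 and Myog did not overlap between the groups (20.1% of all genes lay lower in this way), and no difference passed. A second Myog probe differed by -0.64 (SE 0.57). Over 10 measured myogenic factor genes the median was -0.13, and 2 had an unadjusted p under 0.05 in limma (835 of 10346 over all genes). The measured myoblast markers, 8 of 10, summed to 16740 and 17939 units of linear intensity in siBRG1, against 28406 and 26694 in siScramble. That list had a median of 1.37 in DM against GM, so as a group it rose on differentiation. The 6 measured of 13 osteoblast and chondrocyte markers summed to 4180 and 4535 in siBRG1, against 3153 and 4227 in siScramble. Only 1 of these 6 was detected on both siBRG1 arrays, and only 1 on both siScramble arrays. Of the 6 genes 3 lay above 0 and 3 below, with a median of 0.01. Of the other lists, 8 of 12 adipocyte, 9 of 12 macrophage and lymphoid and 9 of 10 endothelial markers did not pass the detection filter. The part of these sums in the results was not tested.

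DNA replication genes lay on the other side. All 40 measured members lay above 0, 33 without overlap (22.3% of all genes), with a median of 0.45, against 0.01 over all genes, and Cdc6 was the 1 call. Cdt1, which loads the helicase together with Cdc6, read 9.64 and 9.79 in siBRG1, against 8.38 and 8.55 in siScramble, and narrowly missed the threshold (1.25, SE 0.25, adjusted p = 0.0625). Mcm10, a factor of helicase activation, read 8.85 and 8.88 in siBRG1, against 7.86 and 7.86 in siScramble (1.01, SE 0.29, adjusted p = 0.228). The clamp loader subunit Rfc4 differed by 0.84 (SE 0.26) and the chromatin assembly subunit Chaf1a by 0.82 (SE 0.28). Over the list the differences ran between 0.09 and 1.43, with Cdc6 and Cdt1 at the top. Among genes that act in mitosis 24 of 27 lay above 0, with a median of 0.23, and none was called in limma. An unadjusted p under 0.05 was reached by 1 of the 27, against 835 of all 10346 genes. The mitosis median was 0.44 in replicate 1 and 0.08 in replicate 2. Of 19 G1 cyclins, their kinases and E2F factors 14 lay above 0 (median 0.28), with Ccnd2 called and Ccnd1 at 0.14. Further Ccnd1 probes differed by 0.59 and 0.33. Of 11 CDK inhibitor and pocket protein genes 9 lay below 0, among them Rb1 (-0.93, SE 0.28, adjusted p = 0.271) and Cdkn1a (-0.74, SE 0.28, adjusted p = 0.459).

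Promoter sequences are shown for the E2F sites that many replication genes carry and for the E-box bound by MyoD. RefSeq windows of 300 bases (250 before to 50 after each gene's start, build GRCm38.p6) matched 8397 of the tested genes and 21 of the 29 that passed. Motifs were searched on both strands, 8 in all, and a match describes letters and not binding. An E2F site, TTTCGCGC or TTTGGCGC, was held by 10 of 32 matched replication genes (31.2%) and by 1.71% of the tested genes, and by 0.813% of all 32851 windows. The E-box letters CAGCTG were held by 20 of 41 matched genes of the thin filament, myosin, coupling and energy lists (48.8%), by 18.1% of the tested genes and by 16.3% of all windows. The 10 replication genes with an E2F site had a median difference of 0.47 and the other 22 one of 0.56, and the muscle genes with an E-box had -0.98, against -0.76 without it. The bases before the start of the 3 members with the largest difference that hold a match there follow, with the motif in capitals. In Mcm5 the 2 matches, 1 per strand, overlap by 4 bases.
Mcm5 chr8:75109259-75109508 + strand: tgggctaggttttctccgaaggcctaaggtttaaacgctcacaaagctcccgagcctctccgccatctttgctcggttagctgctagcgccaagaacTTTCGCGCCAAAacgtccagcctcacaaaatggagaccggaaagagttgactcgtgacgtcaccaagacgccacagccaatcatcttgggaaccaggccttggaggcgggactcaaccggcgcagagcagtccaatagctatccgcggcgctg
Uhrf1 chr17:56304063-56304312 + strand: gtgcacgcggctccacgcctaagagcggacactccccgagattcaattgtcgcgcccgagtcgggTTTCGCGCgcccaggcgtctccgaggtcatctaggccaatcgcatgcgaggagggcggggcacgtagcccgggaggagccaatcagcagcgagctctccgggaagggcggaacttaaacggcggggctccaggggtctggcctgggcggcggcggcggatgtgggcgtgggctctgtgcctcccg
Dnmt1 chr9:20952624-20952873 - strand: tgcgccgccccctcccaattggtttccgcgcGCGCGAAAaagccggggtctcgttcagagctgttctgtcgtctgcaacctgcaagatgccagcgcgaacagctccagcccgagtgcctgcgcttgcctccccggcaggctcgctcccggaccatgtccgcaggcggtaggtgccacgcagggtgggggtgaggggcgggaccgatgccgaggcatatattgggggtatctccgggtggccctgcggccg
Ckm chr7:19410844-19411093 + strand: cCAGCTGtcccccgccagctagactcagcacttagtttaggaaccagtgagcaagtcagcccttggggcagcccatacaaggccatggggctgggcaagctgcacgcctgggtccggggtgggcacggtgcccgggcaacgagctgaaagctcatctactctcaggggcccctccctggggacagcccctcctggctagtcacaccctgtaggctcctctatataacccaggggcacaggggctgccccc
Acta1 chr8:123894776-123895025 - strand: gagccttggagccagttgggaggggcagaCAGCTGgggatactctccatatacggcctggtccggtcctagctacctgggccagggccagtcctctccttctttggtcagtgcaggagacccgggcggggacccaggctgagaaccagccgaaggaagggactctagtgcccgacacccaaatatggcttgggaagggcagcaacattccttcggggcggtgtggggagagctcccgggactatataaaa
Myl1 chr1:66945057-66945306 - strand: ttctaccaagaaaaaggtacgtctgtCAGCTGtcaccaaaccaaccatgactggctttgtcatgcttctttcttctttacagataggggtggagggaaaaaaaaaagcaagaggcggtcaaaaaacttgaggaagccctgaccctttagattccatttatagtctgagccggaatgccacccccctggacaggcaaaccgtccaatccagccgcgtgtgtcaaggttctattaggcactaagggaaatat
Mcm5 encodes a subunit of the replicative helicase, and Uhrf1 and Dnmt1 keep DNA methylation through replication. They differed by 0.81 (SE 0.28), 0.76 (SE 0.29) and 0.50 (SE 0.31) and did not pass.

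**Figure D3:**
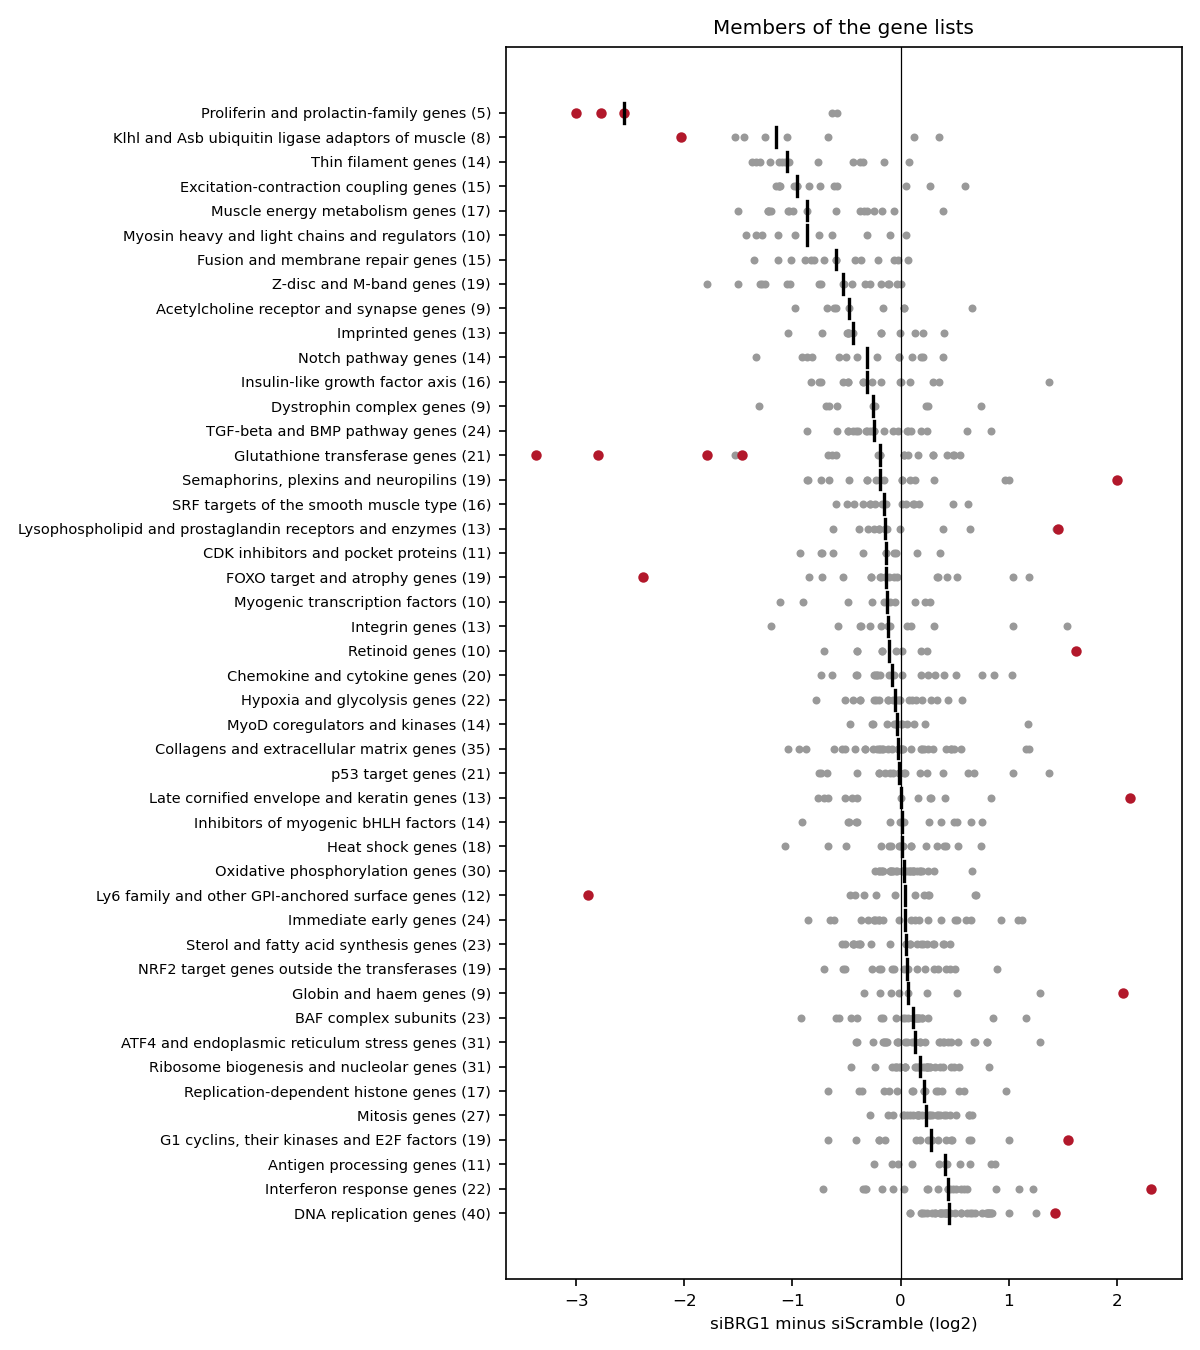
Difference siBRG1 minus siScramble (x axis, log2) of each measured member of the gene lists with at least 5 members, with called genes in red and the list median as a black bar. Lists are ordered by median, the number of members is in brackets, and the proliferin and muscle lists stand at the top with negative medians and DNA replication at the bottom with a positive one.

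Interferon response genes lay higher, with 16 of 22 above 0 and a median of 0.44. Lgals3bp was the 1 call, and the antiviral genes Ifit3 (at least 1.83-fold, adjusted p = 0.107) and Isg15 (at least 1.61-fold, adjusted p = 0.28) were detected in siBRG1 and not in siScramble. Antigen processing genes had a median of 0.41 over 11 genes, with H2-K1, a class I antigen, at 0.88 (SE 0.25, adjusted p = 0.231). Against the same siScramble arrays the antigen processing median was 0.35 in siBAF60c and 0.25 in siBAF60b. The interferon median was 0.11 in siBAF60c and 0.21 in siBAF60b. Without background correction the interferon median was 0.18.

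Families of other called genes are given by their counts, beside 0.28% of all genes that passed. These lists were written with earlier results known, so the call in each is not independent evidence. Of 19 semaphorins, plexins and neuropilins 8 lay above 0 (median -0.19) with Sema7a as the 1 call. The 9 globin and haem genes had a median of 0.07 with Hba-a1 as the 1 call, the 12 Ly6 and GPI-anchored genes 0.04 with Ly6c1, and the 10 retinoid genes -0.10 with Crabp1. Of 19 FOXO target and atrophy genes Depp1 fell and 13 lay below 0 (median -0.13). In that list Pdk4, which restrains pyruvate entry into mitochondria, read 6.98 and 7.78 in siBRG1, against 5.99 and 6.38 in siScramble (1.19, SE 0.44, adjusted p = 0.424), and the stress-induced sestrin Sesn1 differed by 1.04 (SE 0.29, adjusted p = 0.217).

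Several general programmes were also listed. The medians were 0.03 over 30 oxidative phosphorylation genes, 0.01 over 18 heat shock genes, -0.05 over 22 hypoxia and glycolysis genes, 0.06 over 23 sterol and fatty acid synthesis genes and -0.01 over 21 p53 targets. Ribosome biogenesis genes had a median of 0.18, with 23 of 31 above 0, 15 higher without overlap (22.3% of all genes) and 0 lower without overlap. Of 35 collagen and matrix genes 16 lay above 0 (median -0.02), with the calcification inhibitor Mgp at 1.19 (SE 0.43), the thrombospondin Thbs2 at 1.16 (SE 0.30, adjusted p = 0.181) and the proteoglycan Dcn at -1.04 (SE 0.37). Imprinted genes, expressed from 1 parental allele, lay below 0 in 10 of 13 (median -0.44). The growth inhibitor Cdkn1c among them read 13.78 and 13.71 in siBRG1, against 14.35 and 14.60 in siScramble (-0.73, SE 0.32, adjusted p = 0.567). Of 9 acetylcholine receptor and synapse genes 6 lay below 0 (median -0.47), led by the receptor-clustering gene Rapsn (-0.98, SE 0.27, adjusted p = 0.217). None of the genes in these general, matrix, imprinted and synapse lists passed in limma. Over all 10346 genes 418 lay higher and 417 lower at an unadjusted p under 0.05. At an unadjusted p under 0.05 the matrix list held 2 higher and 3 lower genes, the p53 list 3 and 3, the imprinted list 2 lower, the synapse list 2 lower, the ribosome and oxidative phosphorylation lists 1 higher each, the heat shock and hypoxia lists 1 lower each, and the sterol list 0.

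The lists can also be read in each replicate number. In replicate 1, on 1 BeadChip, the thin filament, coupling and energy medians were -1.07, -1.07 and -1.06, and in replicate 2, on different chips, they were -0.84, -0.65 and -0.67. The DNA replication median was 0.56 in replicate 1 and 0.50 in replicate 2. For Gsta1 the differences were -3.13 and -3.60, and for Prl2c2 -2.89 and -3.11.

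**Figure D4:**
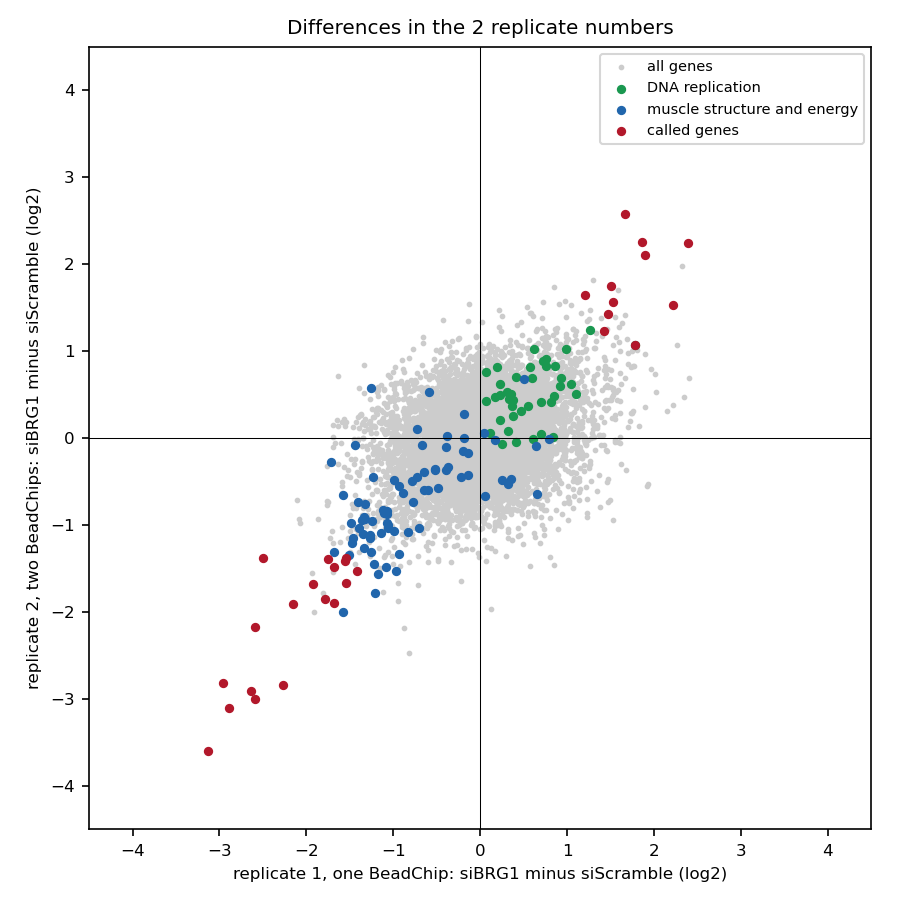
Difference siBRG1 minus siScramble (log2) in replicate 1 (x axis) and replicate 2 (y axis) for all tested genes in grey, DNA replication genes in green, muscle structure and energy genes in blue and called genes in red. Called genes lie far from 0 on both axes with 1 sign, replication genes lie mostly at positive and muscle genes mostly at negative values.

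Of 2439 measured probes without a single gene name 3 passed (0.123%). Probe ILMN_1255416 read 10.97 and 10.71 in siBRG1, against 13.62 and 13.40 in siScramble (-2.66, SE 0.26, adjusted p = 3.36e-04). Probe ILMN_1215251 fell by 2.33 (adjusted p = 0.0109), and probe ILMN_1214840 rose by 2.28 (adjusted p = 0.0257, detected on 1 siScramble array).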

How the data were processed

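Per the file headers, the deposited scanner table gave 45281 probes, each with a linear intensity and a detection p-value per array. The scanner software was not given in the sources used here. The authors' processed table held linear intensities of 23165 of these probes, and each array had the median 164. Equal medians show a common scale and do not tell which normalization the authors used. Every column was matched to a sample through its label, and 0 were left over.

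From the scanner intensities, neqc of limma 3.58.1 (R 4.3.3) corrected the background from the detection p-values, quantile normalized the arrays and took log2 with an offset of 16. A probe entered the fit if 2 or more arrays had a detection p below 0.05, which left 17565, and a gene took its probe with the highest mean. Further probes of a gene are given for some genes only. Gene names came from the supplied platform annotation, in which 19589 probes had 1 symbol, 8 several and 3568 none. All 12 arrays in 6 groups were fitted with lmFit and eBayes (6 residual and 8.17 prior degrees of freedom), and adjusted p-values are from this fit. With 2 arrays per group the smallest exact permutation p is 0.333, so none was used. A gene undetected by all its probes on both arrays of 1 group has only a bound there: its fold is given as at least the ratio to the lowest detected value on those arrays, or to its own value where that is higher. The fit was tested on simulated data with known changes.

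Named are all genes that passed, 12 fixed genes except Smarcd1, which was not among the tested genes, and up to 4 members of each list with the largest differences. Of the genes that missed, the 12 on each side with the smallest p were taken, only among those whose arrays did not overlap between the groups. Not all of these are named in the text. The motifs and the promoters shown were added after values were seen. The gene lists, motifs and tests were chosen with earlier results of these data known, and are not independent evidence. Alternatives changed the background, normalization, starting values, filter, samples, BeadChip block, replicate block and probe rule, and left out each siBRG1 and siScramble array in turn. Of the alternatives 3 were added after the data were seen. Promoters came from RefSeq.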

Additional observations from a re-analysis of the deposited data

How the results depend on the processing

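The 29 genes changed in siBRG1 against siScramble became 11 with median scaling over the kept probes and 0 over all probes, 72 in the fit without DM and 46 with the BeadChip as a random block. They became between 1 and 3 when each array was left out in turn. The 12 genes that differed from siBAF60c became 23 without background correction, 6 and 0 with the same 2 median scalings, 22 with quantile normalization on the log2 scale, 25 with the authors' values, 20 without the detection filter, 59 without DM, 31 with the random block and 22 with the mean of the probes. Leaving out single arrays gave between 0 and 8. The 9 genes that differed from siBAF60b became 0 with either median scaling and with the BeadChip as a fixed block, 29 with only the groups compared, 52 without DM and 16 with the random block, and 0 in each fit without 1 array. The 3 unnamed probes became 0 with median scaling over all probes, 5 with only the groups compared, 6 without DM, 1 with the fixed block, and between 1 and 2 without 1 array. Where the count was 0, limma left 343, 269 and 178 genes for the 3 comparisons and 65 unnamed probes at an unadjusted p under 0.05 with scaling over all probes, and against siBAF60b 464 with scaling over the kept probes and 866 with the fixed block. Without 1 array the lone array of a group is assumed to vary like the other groups. Only siBRG1 and siScramble arrays were left out singly, and no single array of siBAF60b, siBAF60c, DM or GM was. The fits without a siScramble array therefore kept both groups of the siBAF60b and siBAF60c contrasts whole. The causes were not tested. Median scaling over all probes, the fit without DM and the log2-scale normalization were chosen after seeing the data.

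The labels do not say that replicate numbers pair the samples. Replicate 1 of siBRG1 and siScramble shared a BeadChip and replicate 2 did not, and with 2 pairs the deviations of same-numbered arrays correlated at 0.12. With the replicate block 34 genes passed against siScramble, 15 against siBAF60c and 16 against siBAF60b. Smarca4 kept its direction and did not pass in any setting, at -1.20 to -0.63 without single arrays, -0.48 with the authors' values and -0.50 without background correction. Signs turned for Mef2c with median scaling (-0.051) and without single arrays (-0.091 to 0.64), for Smarca2 with the mean of its probes (-0.18), for Smarcd2 (-0.28 to 0.32 without single arrays) and for Ccnd1 (-0.033 to 0.32 without single arrays). Without background correction the thin filament median was -0.73, the coupling median -0.56, the energy median -0.41 and the replication median 0.34. With the BeadChip as a fixed block 11 of the 29 genes did not pass, among them Cdc6, Ccnd2, Crabp1 and Gstm2. Signal near the detection limit bounds the dim genes, and 2 arrays per group limit all precision.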

Other observations

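Notch signalling genes lay lower in siBRG1 cells without passing, in a list of 14 with 10 below 0 and a median of -0.31 (-0.62 in replicate 1 and -0.24 in replicate 2). The receptor Notch3 read 8.14 and 7.71 in siBRG1, against 9.35 and 9.19 in siScramble (-1.34, SE 0.35, adjusted p = 0.173). Its relative Notch1 differed by -0.87 (SE 0.30), and the target genes Hey1 and Heyl, which encode repressors of the hairy family, by -0.91 (SE 0.27) and -0.82 (SE 0.31). The insulin-like growth factor gene Igf1 went the other way, at 7.57 and 7.66 in siBRG1, against 6.30 and 6.19 in siScramble (1.37, SE 0.30, adjusted p = 0.0813), in a list of 16 with a median of -0.31 (-0.29 in replicate 1 and -0.03 in replicate 2). A second Igf1 probe differed by 0.34.

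Several genes just missed the threshold. The hormone gene Fgf21 read 8.23 and 7.90 in siBRG1, against 9.92 and 9.44 in siScramble (-1.62, SE 0.32, adjusted p = 0.0507). The corepressor gene Hr read 6.06 and 5.72 in siBRG1, against 7.97 and 7.72 in siScramble (-1.96, SE 0.39, adjusted p = 0.0543; second probe -0.75). The sphingosine kinase Sphk1 read 10.01 and 9.88 in siBRG1, against 8.42 and 8.60 in siScramble (1.44, SE 0.28, adjusted p = 0.0544). The glutamate transporter Slc1a3 (1.47, SE 0.30, adjusted p = 0.066), the integrin Itgb4 (1.54, SE 0.32, adjusted p = 0.066) and Cdca7 (1.17, SE 0.25, adjusted p = 0.0746) lay higher. A second Itgb4 probe differed by 0.67. Near misses were picked from genes whose arrays did not overlap between the groups, so that separation is no result. Over all genes 22.3% lay higher and 20.1% lower in this way. The natriuretic peptide gene Nppb was detected in siScramble and not in siBRG1 (at least 2.78-fold lower, adjusted p = 0.066). In the list of 31 ATF4 and endoplasmic reticulum stress genes the median was 0.14, with Trib3 at 1.29 (SE 0.43) and Asns at 0.80 (SE 0.29). A second Trib3 probe differed by 0.33, and further Asns probes by 0.43 and 0.94. Among 24 immediate early genes the median was 0.04, with Egr2 at 1.12 (SE 0.39) and Dusp5 detected in siBRG1 and not in siScramble (at least 1.46-fold, adjusted p = 0.359).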
